A study of Homo sapiens with 6 samples.

Results

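The insulin-like growth factor (IGF) binding protein genes IGFBP1 to IGFBP7 and the ligand genes IGF1 and IGF2 were followed by RNA-seq in Ishikawa cells, an established line from a human endometrial cancer. The 9 symbols were looked up by name and matched 10 of the 58735 genes in the deposited table, because IGF2 is listed under 2 gene identifiers. Cells transfected with an siRNA against TCF19 (siTCF19, 3 libraries) were compared with cells transfected with a negative control siRNA (siNC, 3 libraries), and RNA was taken 48 hours after transfection in both. All cells were grown in DMEM with 10% serum. The labels give neither the siRNA sequence nor the culture behind each library. Loss of TCF19 and any other action of this siRNA therefore cannot be told apart, and every p-value rests on the spread among these libraries alone, part or all of which may be technical.

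IGF1 and IGF2 are secreted ligands that drive growth and survival through the receptor tyrosine kinase IGF1R and, for IGF2, through insulin receptor forms. Secreted IGFBPs hold the ligands in complexes, slow their clearance and set how much ligand reaches the receptor, and proteases that cut IGFBPs release it. In the endometrium IGF2 and several IGFBPs change with the cycle, and IGFBP1 is a classical product of decidualized stroma, while IGFBP7 binds IGFs weakly and is found in extracellular matrix and blood vessels.

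Library totals were 14680022 to 16244705 counts. TCF19 itself had 675, 529 and 606 counts in siTCF19 libraries, against 2572, 2905 and 2756 counts in siNC libraries, a log2 fold change of -2.20 ± 0.06 (SE; edgeR adjusted p = 6.15e-29). All 8 epithelial markers passed the filter on low counts, with a summed level of 2971 to 3111 CPM (counts scaled by TMM library size) in siTCF19 and 3057 to 3196 CPM in siNC. Of these 8, CDH1, KRT19, MUC1 and SOX17 were higher and KRT8 and KRT18 lower. Over all tested genes 20.7% were higher and 20.8% lower. The summed level of 10 stromal markers was 128 to 138 CPM in siTCF19 and 181 to 183 CPM in siNC, without overlap, and was mostly COL1A2, a collagen gene that fell (101 ± 3.07 CPM in siTCF19 and 161 ± 2.38 CPM in siNC, edgeR adjusted p = 2.40e-14). Another collagen gene, COL1A1, rose by 0.58 on the log2 scale. Of the stromal markers, 4 of 10 passed that filter, DCN was at 0 in every library, and the decidual hormone gene PRL was also at 0.

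Promoter windows, from 250 bases before to 50 after a transcription start, were found in RefSeq (GRCh38.p14) for 6 of the 9 symbols and not for IGFBP1, IGFBP7 and IGF2. The windows of IGFBP3, IGFBP4 and IGFBP5 are printed because they belong to the most abundant member and to members at the detection limit. Capitals mark GGGCGG or TATAAA on either strand, which do not overlap each other here, and each window is written 5′ to 3′ on the gene's strand.
IGFBP3, chr7:45921223-45921522, minus strand: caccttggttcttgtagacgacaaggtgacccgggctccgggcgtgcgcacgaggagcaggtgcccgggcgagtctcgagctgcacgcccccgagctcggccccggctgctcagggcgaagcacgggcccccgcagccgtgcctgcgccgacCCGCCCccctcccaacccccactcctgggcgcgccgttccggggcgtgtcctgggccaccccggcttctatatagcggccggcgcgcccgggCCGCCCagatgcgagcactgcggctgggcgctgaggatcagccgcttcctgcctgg
IGFBP4, chr17:40443200-40443499, plus strand: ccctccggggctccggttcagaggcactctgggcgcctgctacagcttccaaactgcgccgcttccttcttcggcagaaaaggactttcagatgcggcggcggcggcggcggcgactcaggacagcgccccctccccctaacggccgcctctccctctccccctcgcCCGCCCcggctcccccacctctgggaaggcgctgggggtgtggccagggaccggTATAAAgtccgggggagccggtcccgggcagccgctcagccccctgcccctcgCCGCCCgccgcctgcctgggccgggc
IGFBP5, chr2:216695500-216695799, minus strand: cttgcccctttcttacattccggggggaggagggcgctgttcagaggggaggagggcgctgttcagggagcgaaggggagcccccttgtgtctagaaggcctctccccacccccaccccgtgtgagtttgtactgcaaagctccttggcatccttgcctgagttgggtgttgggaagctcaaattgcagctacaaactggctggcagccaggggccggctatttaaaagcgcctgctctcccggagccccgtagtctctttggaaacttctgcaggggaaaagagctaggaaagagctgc
The IGFBP3 window held 36 CG dinucleotides and 2 matches to GGGCGG. IGFBP4, which was nearly silent in these cells, held 30 CG dinucleotides, 2 matches to GGGCGG and a TATAAA that begins 29 bases upstream of the start. The IGFBP5 window held 9 CG dinucleotides and neither motif. Over all 35116 windows in the table, 45.0% held GGGCGG and 11.5% held TATAAA on either strand, and the median was 14 CG dinucleotides. A match describes letters only.

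The level of each member was compared per length, as the deposited FPKM (reads scaled to exon length and library size). In siTCF19 libraries the order was IGFBP3, IGFBP2, IGFBP7 and IGFBP6, whereas in siNC libraries IGFBP6 stood above IGFBP7. IGFBP1, IGFBP4, IGFBP5, IGF1 and IGF2 were at or below 0.541 FPKM in every library of both groups. Of the 9 symbols, 4 passed the filter on low counts and were tested.

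**Figure D1:**
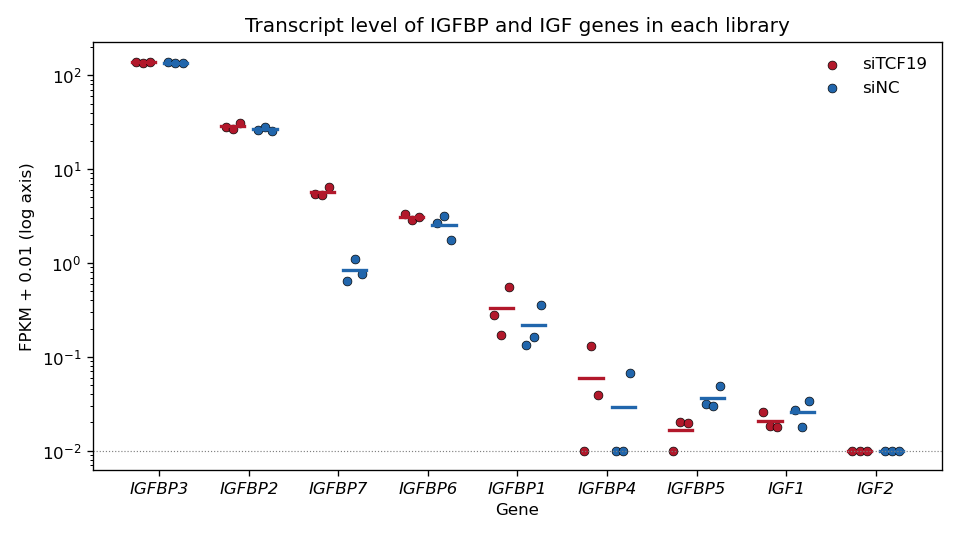
FPKM + 0.01 on a log axis for each of the 9 symbols, with one point per library and bars at the group means; IGF2 is drawn once for its 2 identifiers, which are both at 0. Among the 4 tested members, only IGFBP7 has siTCF19 points, 5.26 to 6.39 FPKM, that lie clear of its siNC points, 0.636 to 1.08 FPKM. The points of IGFBP5, which was not tested, do not overlap either, with siTCF19 below siNC, but are at most 0.0394 FPKM.

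Only IGFBP7 passed the test among the 4 tested members, and it rose. IGFBP7 (ENSG00000163453, chromosome 4, 57030773 to 57110385 on hg38, minus strand) had 168, 154 and 193 counts in siTCF19 libraries, against 18, 33 and 23 counts in siNC libraries. Every siTCF19 library lay far above every siNC library. The mean level was 11.1 ± 1.16 CPM in siTCF19 and 1.60 ± 0.45 CPM in siNC (SD, n = 3 each), a 6.87-fold rise with a 95% interval of 5.28 to 8.93. The log2 fold change was 2.78 ± 0.19 (SE), with an adjusted p of 4.99e-16 by edgeR's quasi-likelihood test with Benjamini-Hochberg adjustment over all 17299 tested genes. Only 17 tested genes, 0.098% of them, had a larger fitted rise. In these bulk samples a change in the share of cells that express a gene and a change in RNA per cell cannot be told apart.

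In the same fit 41.5% of all tested genes were called: 20.7% were higher and 20.8% lower, and 2.68% were higher by at least 2-fold. Against that background 1 of 4 members was higher and 0 were lower. At an unadjusted p under 0.05 the count of lower members was also 0 by edgeR, and DESeq2 called 0 lower. The groups did not overlap in 1 of the 4 members, a state found in 49.2% of all tested genes. The median log2 fold change of the 4 members was 0.20, beside 0.00 over all tested genes.

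Of the exonic bases of IGFBP7, 364 (18.9%) are shared with genes on the other strand, namely POLR2B and IGFBP7-AS1. POLR2B, a subunit of RNA polymerase II whose end overlaps that of IGFBP7, had 149 ± 7.12 CPM in siTCF19 and 180 ± 3.4 CPM in siNC, so it moved in the opposite direction (log2 fold change -0.27, edgeR adjusted p = 1.76e-05). IGFBP7-AS1 had 0 counts in every library. The strand setting of the counting is not known here, so reads on the shared bases cannot be assigned to one strand. The next tested gene on the other side, LINC02232, lies 7803895 bases away and did not pass the test (log2 fold change -0.76, edgeR adjusted p = 0.106).

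IGFBP7 is also a vessel gene, and endothelial markers moved unevenly beside it. Their summed level over 6 markers was 14.4 to 18.6 CPM in siTCF19 and 7.38 to 8.15 CPM in siNC. That sum was carried by VWF, the clotting factor carrier, at 15.5 ± 1.98 CPM in siTCF19 and 5.13 ± 0.38 CPM in siNC (edgeR adjusted p = 5.30e-13). CDH5, the junction cadherin of endothelium, fell to 0.259 CPM in siTCF19, against 0.978 CPM in siNC (edgeR adjusted p = 0.00216). Over 3 libraries each, PECAM1 had 5 counts in siTCF19 and 29 in siNC, and the receptor gene KDR had 1 count in siTCF19 and 0 in siNC. CDH5, PECAM1 and KDR were at most 1.22 CPM in any library, and 3 of the 6 markers passed the filter. The samples are cultures of an established line, not a tissue, and any link of these markers to the rise of IGFBP7 was not tested.

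The genes whose centred pattern over the 6 libraries was most like that of IGFBP7 were PHLDA3, KRT80 and THBS1. Their Euclidean distances on the log2 CPM scale were 0.446, 0.514 and 0.765, taken over protein-coding genes that averaged 5 CPM or more. PHLDA3, an inhibitor of AKT membrane binding, had 20.9 CPM in siTCF19 and 2.97 CPM in siNC. KRT80, an epithelial keratin, had 41.1 CPM in siTCF19 and 5.21 CPM in siNC. THBS1, a matrix glycoprotein, had 15.8 CPM in siTCF19 and 3.01 CPM in siNC; its log2 fold change of 2.38 was 1.03 on the log2(FPKM + 1) scale. The measure was taken over 6 libraries in 2 groups, so it is a description of the group difference and little else.

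**Figure D2:**
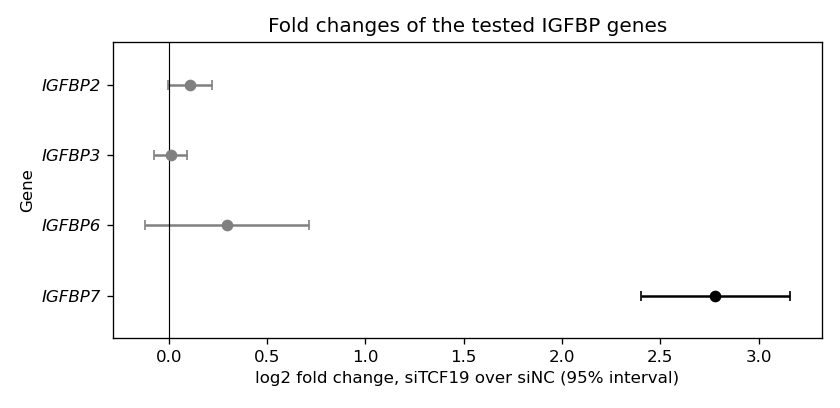
The log2 fold change (siTCF19 over siNC) of the 4 tested members with its 95% interval; black marks the gene that passed the test and grey the others. The interval of IGFBP7 runs from 2.40 to 3.16, and those of IGFBP2, IGFBP3 and IGFBP6 include 0.

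IGFBP3, the main carrier of IGFs in serum, was the most abundant member and did not pass the test. It had 9981, 9402 and 9974 counts in siTCF19 libraries, against 9290, 9740 and 9857 counts in siNC libraries. Per length this was 137, 136 and 139 FPKM in siTCF19 and 139, 135 and 137 FPKM in siNC, so the groups overlapped throughout. Its rank by FPKM among the tested genes was 183 to 188 in siTCF19 and 209 to 231 in siNC. The log2 fold change was 0.01 ± 0.04 (SE; edgeR adjusted p = 0.885), and the 95% interval of the fold ran from 0.95 to 1.07.

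IGFBP2, which binds IGF2 well and is often abundant in tumours, was the second member by level. Its counts were 2155, 1944 and 2330 in siTCF19 libraries, against 1826, 2147 and 1935 counts in siNC libraries. On the CPM scale siTCF19 replicate 2 (130) lay below siNC replicate 2 (137), so the groups overlapped. The level was 139 ± 10.41 CPM in siTCF19 and 129 ± 6.87 CPM in siNC (SD, n = 3 each), a log2 fold change of 0.11 ± 0.05 (SE; edgeR adjusted p = 0.113). With library-size-only scaling it was called higher (0.17, edgeR adjusted p = 0.00964), and so it was without siNC replicate 2 (0.15, 0.0365) or without siTCF19 replicate 2 (0.16, 0.0181). Without siTCF19 replicate 3 the log2 fold change was 0.05.

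IGFBP6, which prefers IGF2 over IGF1, was low in both groups. Counts were 71, 59 and 65 in siTCF19 libraries, against 53, 67 and 37 counts in siNC libraries, and the groups overlapped. The log2 fold change was 0.30 ± 0.21 (SE; edgeR adjusted p = 0.265), and the 95% interval of the fold ran from 0.92 to 1.64. Single control libraries moved the log2 fold change in both directions: it was 0.09 without siNC replicate 3 and 0.49 without siNC replicate 2, and neither was called.

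IGFBP1, the decidual and liver IGFBP, was at the edge of detection. It had 7, 4 and 14 counts in siTCF19 libraries, against 3, 4 and 9 counts in siNC libraries. The mean was 0.538 ± 0.33 CPM in siTCF19 and 0.346 ± 0.20 CPM in siNC (SD, n = 3 each), and the groups overlapped. IGFBP1 did not pass the filter; with no filter its log2 fold change was 0.62 with an edgeR adjusted p of 0.603. A difference was not detectable at this depth.

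Both remaining binding proteins were close to 0. IGFBP4, a target of the protease PAPPA, had 0, 4 and 1 counts in siTCF19 libraries, against 0, 0 and 2 counts in siNC libraries. IGFBP5, the most conserved member in vertebrates, had 0, 1 and 1 counts in siTCF19 libraries, against 2, 2 and 4 counts in siNC libraries, and the groups did not overlap. These counts stood at or around the floor of 3 counts, which equals 0.190 to 0.206 CPM, and no fold is given.

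Members that sit side by side in the genome had very different levels. IGFBP1 (chromosome 7, 45888357 to 45893668, plus strand) and IGFBP3 (45912245 to 45921874, minus strand) lie tail to tail with 18576 bases between them, and the first was at most 0.541 FPKM in any library. IGFBP2 (chromosome 2, 216632828 to 216664436, plus strand) and IGFBP5 (216672105 to 216695525, minus strand) are likewise tail to tail, with 7668 bases between them. IGFBP2 had 28.9 ± 2.21 FPKM in siTCF19 and 26.8 ± 1.48 FPKM in siNC, and IGFBP5 was at most 0.0394 FPKM in any library.

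The make-up of the IGFBP transcript pool was described as each gene's share of the summed FPKM of the 7 IGFBP genes. IGFBP3 held 78.3% ± 1.10 of the pool in siTCF19 and 81.8% ± 1.25 in siNC (SD, n = 3 each). IGFBP2 held 16.4% ± 0.79 in siTCF19 and 16.0% ± 0.83 in siNC. The share of IGFBP7 was 3.25% ± 0.25 in siTCF19 and 0.493% ± 0.14 in siNC, and that of IGFBP6 was 1.77% ± 0.115 in siTCF19 and 1.51% ± 0.42 in siNC. The summed level was 175 ± 4.97 FPKM in siTCF19 and 167 ± 1.54 FPKM in siNC. Thus the largest fold change of the family took place in a minor member of the pool: IGFBP3 stood 24.1 times above IGFBP7 in siTCF19 and 166 times above it in siNC on the FPKM scale.

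**Figure D3:**
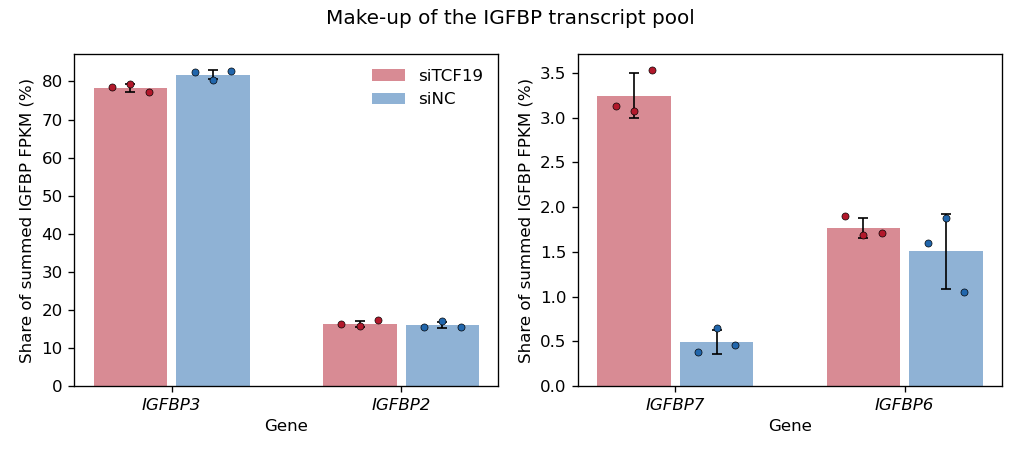
Each gene's share (percent) of the summed FPKM of the 7 IGFBP genes, with points for libraries, bars for group means and error bars for the SD over 3 libraries. IGFBP3 and IGFBP2 (left panel) make up most of the pool in both groups, while IGFBP7 holds 3.25% in siTCF19 and 0.493% in siNC (right panel, drawn on a different scale).

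Neither ligand gene was measured above the detection limit. IGF1 (chromosome 12, 102395874 to 102481744, minus strand) had 2, 1 and 1 counts in siTCF19 libraries, against 2, 1 and 3 counts in siNC libraries. Of its exonic bases, 82.4% are shared with HELLPAR, a long non-coding RNA on the other strand, and 1429 bases are its own. The strand setting of the counting is not known here, so a low level and uncounted reads cannot be told apart on the shared bases. On the bases of its own, the floor of 3 counts equals 0.132 to 0.143 FPKM. IGF2 was listed at 0 counts in all 6 libraries under both identifiers, ENSG00000167244 (chromosome 11, 2129112 to 2149603, minus strand) and ENSG00000284779 (2129112 to 2158658, minus strand).

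The zero for IGF2 cannot be read as silence over the whole gene. The 2 IGF2 models share 73.7% and 90.0% of their exonic bases with same-strand exons of one another and of INS-IGF2 and AC132217.1. INS-IGF2, the read-through gene, is shared in full and was also at 0. In the same table, 211 of 252 protein-coding genes of at least 500 exonic bases whose exons are wholly shared with same-strand genes were listed at 0 in every library (83.7%), and the highest summed count among them was 28. Of 10945 such genes with no shared exonic base, 1849 (16.9%) were at 0. The sources used here do not say how reads on several genes were counted, so silence and uncounted reads cannot be told apart on the shared bases. On the 1744 exonic bases that the first model shares with no gene, a count of 0 allows up to 3 counts, or 0.108 to 0.117 FPKM. The second model has 584 such bases, with a limit of 0.323 to 0.351 FPKM. H19, the imprinted non-coding neighbour of IGF2, had 3 counts in siTCF19 and 4 in siNC over 3 libraries each.

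Of the 3 receptors tested, 2 rose and 1 was not called, in a fit where 20.7% of all tested genes were higher. IGF2R, which takes up and degrades IGF2 and sorts lysosomal enzymes, had 573, 604 and 579 CPM in siTCF19, against 376, 369 and 360 CPM in siNC. The log2 fold change of IGF2R was 0.67 ± 0.04 (SE, edgeR adjusted p = 1.29e-16). The insulin receptor gene INSR rose by 0.29 (edgeR adjusted p = 0.000434). IGF1R, the signalling receptor for both ligands, had 85.1 ± 3.05 CPM in siTCF19 and 88.6 ± 5.89 CPM in siNC and was not called (edgeR adjusted p = 0.446).

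Among 12 receptor substrates and adaptors, 10 were tested, of which 2 rose, 4 fell and 4 were not called (median log2 fold change -0.10). Over all tested genes 20.7% were higher, 20.8% were lower and the median was 0.00. GRB10, an adaptor that binds the IGF1 and insulin receptors and dampens their signal, had 52.1, 54.9 and 49.5 CPM in siTCF19, against 116, 122 and 122 CPM in siNC. Its log2 fold change was -1.20 ± 0.06 (SE, edgeR adjusted p = 1.04e-20), and the groups were far apart. GRB14, a related adaptor, fell by 0.52 on the log2 scale. Its call was lost at an adjusted p under 0.01 and without siTCF19 replicate 1. PTPN11, the phosphatase SHP2, had 225 ± 17.2 CPM in siTCF19 and 306 ± 4.91 CPM in siNC, and the adaptor gene SHC1 fell by 0.27. The guanine nucleotide exchange factors SOS1 (0.20) and SOS2 (0.31), which activate RAS, rose. SOS1 was not called at an adjusted p under 0.01 or without replicate 2 of either group. IRS1, the docking protein for both receptors, had 37.4 CPM in each group, and IRS2 had 3 counts in siTCF19 and 2 in siNC over 3 libraries each.

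**Figure D4:**
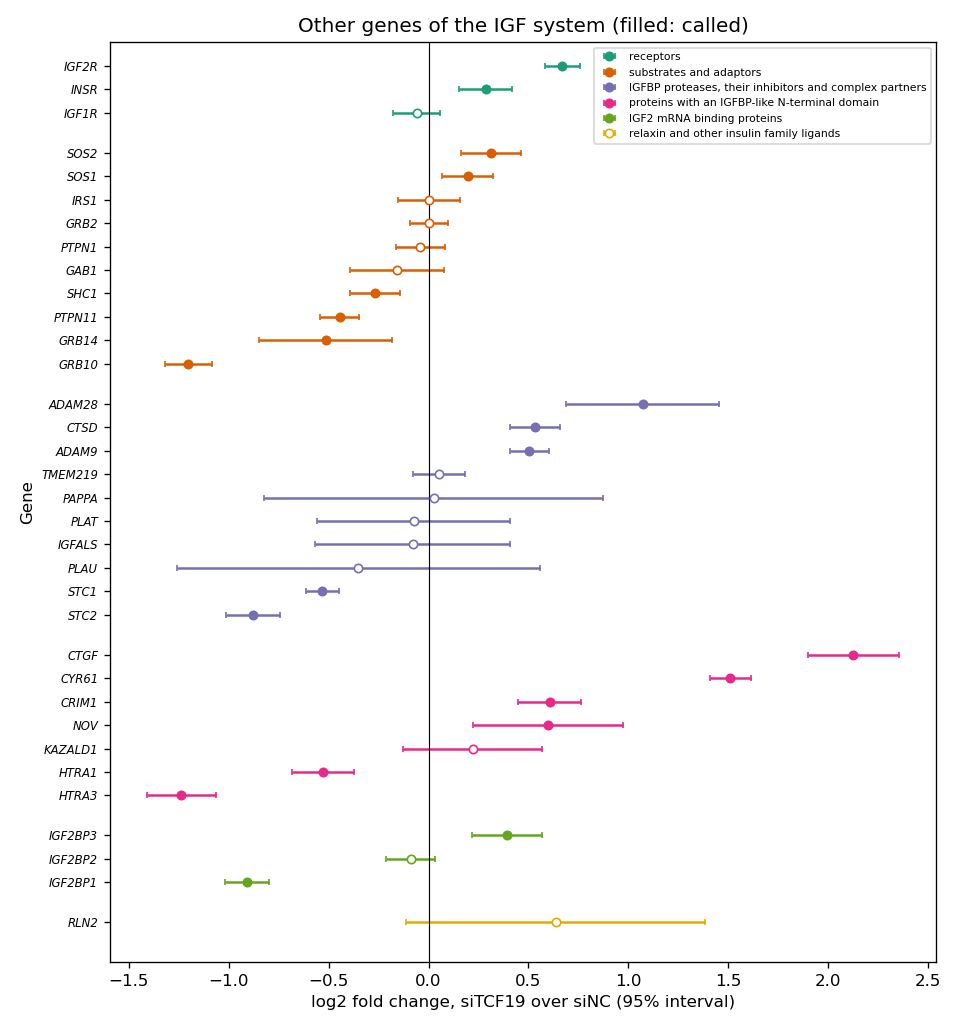
The log2 fold change (siTCF19 over siNC) with its 95% interval for the tested genes of 6 lists around the IGF system; filled points passed the test. CTGF and CYR61 lie farthest to the right, and HTRA3 and GRB10 lie near -1.2.

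Of 17 genes for proteases that cut IGFBPs, their inhibitors and IGFBP partners, 10 were tested, 3 rose, 2 fell and 5 were not called (median -0.02). The 5 calls of 10 lie near the 41.5% called over all tested genes. STC1 and STC2, secreted stanniocalcins that inhibit the protease PAPPA, both fell: STC1 had 739 ± 21.9 CPM in siTCF19 and 1069 ± 10.1 CPM in siNC, and STC2 had 34.0 ± 0.32 CPM in siTCF19 and 62.6 ± 3.62 CPM in siNC. PAPPA itself was low, at 0.802 CPM in siTCF19 and 0.789 CPM in siNC (edgeR adjusted p = 0.971), and PAPPA2 was at 0. The membrane metalloproteases ADAM9 (0.50) and ADAM28 (1.07) and the lysosomal protease gene CTSD (0.54) rose. CTSD shares 52.7% of its exonic bases with overlapping models, so its value is uncertain. IGFALS, the serum partner of IGFBP3 complexes, had 2.44 CPM in siTCF19 and 2.58 CPM in siNC and was not called.

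Of 13 proteins outside the family that carry an IGFBP-like N-terminal domain, 7 were tested: CYR61, CTGF, NOV and CRIM1 rose, HTRA1 and HTRA3 fell, and KAZALD1 was not called (median 0.60). These 6 calls of 7 stand beside 41.5% called and a median of 0.00 over all tested genes. NOV was not called without siNC replicate 3. CTGF, a matricellular growth regulator, had 26.6, 25.7 and 24.3 CPM in siTCF19, against 5.64, 5.86 and 6.03 CPM in siNC, a log2 fold change of 2.13 ± 0.11 (SE, edgeR adjusted p = 2.10e-19). CYR61, another matricellular protein, had 288 ± 5.70 CPM in siTCF19 and 101 ± 7.02 CPM in siNC. HTRA3, a secreted serine protease, had 15.4, 16.2 and 16.1 CPM in siTCF19, against 37.6, 36.7 and 38.1 CPM in siNC. The membrane protein gene CRIM1 rose by 0.61, and IGFBPL1 had 2 counts in siTCF19 and 1 in siNC.

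Of the 3 IGF2 mRNA binding proteins, which bind IGF2 and many other mRNAs, IGF2BP1 fell, IGF2BP3 rose and IGF2BP2 was not called, beside 41.5% called over all tested genes. IGF2BP1 had 68.3, 67.0 and 64.7 CPM in siTCF19, against 128, 122 and 126 CPM in siNC (log2 fold change -0.91 ± 0.05 SE, edgeR adjusted p = 1.33e-17). IGF2BP3 had 30.6 ± 2.69 CPM in siTCF19 and 23.3 ± 2.0 CPM in siNC (edgeR adjusted p = 0.000288). Among 7 relaxin and insulin-like ligands only RLN2 passed the filter, with 1.57 CPM in siTCF19 and 0.996 CPM in siNC, and it was not called (edgeR adjusted p = 0.173). Its log2 fold change was 0.64, or 0.98 without siTCF19 replicate 1, where it was called (edgeR adjusted p = 0.0386), 0.42 without siTCF19 replicate 3 and 0.30 on the log2(FPKM + 1) scale. INSL3, with 10, 10 and 2 counts in siTCF19 libraries, against 3, 2 and 4 counts in siNC libraries, did not pass the filter with all 6 libraries and was called without siTCF19 replicate 3 (log2 fold change 1.69, edgeR adjusted p = 0.0451).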

How the data were processed

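The authors deposited 1 table that, per the file headers, gives every library a column of read counts and a column of FPKM. It also holds the authors' normalized mean signal per group, log2 fold change and p-value columns, which were not used for any call. The submitters' processing notes name HISAT2 2.0.5, featureCounts 1.5.0-p3 and hg38. The sources used here give neither the strand setting nor the treatment of reads on overlapping genes. All 58735 identifiers, starts and ends equalled GENCODE release 29, whose exons gave the shared bases.

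Counts were filtered with filterByExpr, scaled by TMM and tested with edgeR 4.0.16 (R 4.3.3) with group as the only term. The threshold for a call was a Benjamini-Hochberg adjusted p under 0.05. The filter, scaling and edgeR test were also run on simulated counts. The 95% intervals come from the fitted standard error, and floors of 3 counts cover counting error only. Alternatives used DESeq2 1.42.0 and limma 3.58.1. Libraries of a group differed by more than sampling noise. Members and lists were chosen with earlier results of these data known. Genes named beside the 9 symbols were up to 4 called genes per list by lowest p (where none was called, the highest by CPM), the 3 genes most like IGFBP7 in pattern and its nearest tested genes; ADAM28, GRB14, SOS1, IGF1R, IRS1, IRS2, PAPPA, PAPPA2, IGFALS, NOV, HTRA1, KAZALD1, IGF2BP2, IGFBPL1, INSL3, H19, IGFBP7-AS1 and single markers were named after their values were seen.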

Additional observations from a re-analysis of the deposited data

How the results depend on the processing

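The call and direction of IGFBP7 held under all 17 alternatives: its log2 fold change was 1.88 to 3.03, with 1.88 on the log2(FPKM + 1) scale, which understates low genes, and 2.63 to 3.03 with 1 library left out. The number of higher members was 2 with library-size-only scaling and 1 to 2 with 1 library left out, the added gene being IGFBP2 (0.17 with library-size-only scaling, 0.054 to 0.16 with 1 library left out). IGFBP3 had -0.0014 without siNC replicate 2 and up to 0.024 without any other single library. Over all 17 alternatives its log2 fold change reached 0.069, and it was not called under any of them. The number of higher substrates and adaptors was 1 at an adjusted p under 0.01 and with either FPKM pseudocount (1 and 0.1). With 1 library left out it was 1 to 2, and the gene lost was SOS1 in each case. The number of lower substrates and adaptors was 3 at an adjusted p under 0.01 and 3 to 4 with 1 library left out, the gene lost being GRB14. The number of higher relaxin-family ligands was 0 to 1 with 1 library left out (RLN2 without siTCF19 replicate 1, INSL3 without siTCF19 replicate 3). As shares of summed CPM, which favours long transcripts, IGFBP3 held 80.4% in siTCF19, IGFBP2 17.6% in siTCF19, IGFBP7 1.41% in siTCF19 and 0.210% in siNC, and IGFBP6 0.533% in siTCF19 and 0.448% in siNC.

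Same-numbered libraries did not deviate together over all tested genes (r = 0.0086, -0.024 and 0.021). This cannot settle whether the numbers pair libraries, because a shared factor could move only part of the genes and the labels do not give the cultures. With the number as a replicate block, 3433 genes were higher and 3441 lower, IGFBP7 had a log2 fold change of 2.78, and the members' counts were 1 higher and 0 lower. Library-size-only scaling called 4512 genes higher and 2842 lower, beside 3586 and 3597 with TMM. Low counts limit IGFBP1, IGFBP4, IGFBP5 and IGF1.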

Other observations

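Within 500 kb of the IGFBP genes, 59 other genes were tested, of which 10 were higher and 19 lower in siTCF19 (median log2 fold change -0.06). Over all tested genes 20.7% were higher and 20.8% lower. By lowest p these included TNS2 (-1.05) and the translation factor gene EIF4B (-0.63) near IGFBP6, NOA1 (-0.74) near IGFBP7 and the thyroid hormone receptor gene THRA (-0.55) near IGFBP4.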
